A study of Drosophila melanogaster with 2 samples.

Results

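The Halloween genes encode the enzymes that turn dietary sterol into 20-hydroxyecdysone, the moulting hormone of insects. They were chosen by name, and all 8 (nvd, sro, spo, spok, phtm, dib, sad and shd) were found among the 13945 protein-coding genes of the main chromosome arms. For each gene, every woc-eGFP peak with its summit in the gene body or within 20 kb of it was taken from the deposited peak lists. The peaks come from ChIP-seq of whole Drosophila melanogaster, taken as larvae of the third instar, in the wandering phase, from a transgenic line. The line stably carries woc (without children), a zinc finger protein, with GFP at its C-terminal end, and the fusion was precipitated with an antibody against GFP, although the antibody label names woc itself. There was 1 group, with 2 libraries, biological replicates 1 and 3, from separate samples of males and females mixed together and from 1 fly line. The age of the larvae is given as unknown. No second condition was recorded, so nothing was tested between conditions, and counts over the 8 genes are set beside the same counts over all genes as a description.

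As background, the hormone is made from cholesterol in the prothoracic gland, a small endocrine tissue of the larva, and its last step takes place in peripheral tissues such as the fat body and gut. nvd encodes an oxygenase for the first step, from cholesterol to 7-dehydrocholesterol. sro (a short-chain dehydrogenase) and the related cytochrome P450 enzymes of spo and spok act in the poorly known steps that follow, spo mainly in the embryo and ovary and spok in the larval gland. The P450 enzymes of phtm, dib and sad then add hydroxyl groups to give ecdysone, and that of shd turns ecdysone into 20-hydroxyecdysone. Larvae mutant for woc have been described as short of ecdysteroid, with a defect placed at the step that nvd carries out, which is why these genes are of interest in a map of woc.

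A peak's signal is the value of the authors' peak caller, whose unit is not stated; it ranks peaks within a list and is not on a common scale between lists. The optimal list (6636 peaks, signal from 99.6 upwards on the arms) holds the pooled peaks left after the authors' reproducibility threshold; on the arms these were the 6614 pooled peaks of highest signal. The relaxed lists (29999 peaks each for the pooled reads, replicate 1 and replicate 3) hold peaks together with background. Read depth was not used here and is unknown. A promoter peak is one with its summit within 500 bp of an annotated transcription start site (TSS) of a protein-coding transcript, and all coordinates are on the dm6 build.

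Optimal peaks at the start sites or in the bodies of the Halloween genes were few, in counts close to the share over all genes. Of the 8 genes, 1 (sro) had an optimal summit within 500 bp of a TSS, where 21.9% of all protein-coding genes had one. None of the 8 had an optimal summit in its gene body, where 12.9% of all genes had one. Within 20 kb the count was 5 of 8 (sro, spo, dib, sad and shd), where 78.6% of all genes had an optimal summit. With 8 genes, 1 gene more or less moves a share by 12.5 percentage points, so these counts are read as descriptions only. The 5 genes together had 26 optimal summits: 8 each around sad and shd, 4 each around sro and spo, and 2 beside dib. These lay in 23 distinct intervals, some of which overlap, and merging the overlaps left 20 regions. Counts of summits are therefore not counts of separate sites. The median was 3 optimal summits per Halloween gene and 2 over all genes.

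The relaxed lists, which hold weaker peaks, added few calls. Within 500 bp of a TSS, 2 of the 8 genes (sro and shd) had a relaxed pooled summit, where 38.5% of all genes had one. The same 2 had one in replicate 1 (40% of all genes), and phtm joined them in replicate 3 (39.8% of all genes). In the gene body only shd had a summit, in the pooled list (28.7% of all genes), in replicate 1 (31.2%) and in replicate 3 (29.3%). Within 20 kb, 6 of the 8 genes had a summit in each of the 3 relaxed lists, where the shares of all genes were 95.4% for the pooled list, 96.4% for replicate 1 and 96.5% for replicate 3. The 2 without any were nvd and spok, and 1.95% of all genes had no summit there in any of the 3 lists.

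**Figure D1:**
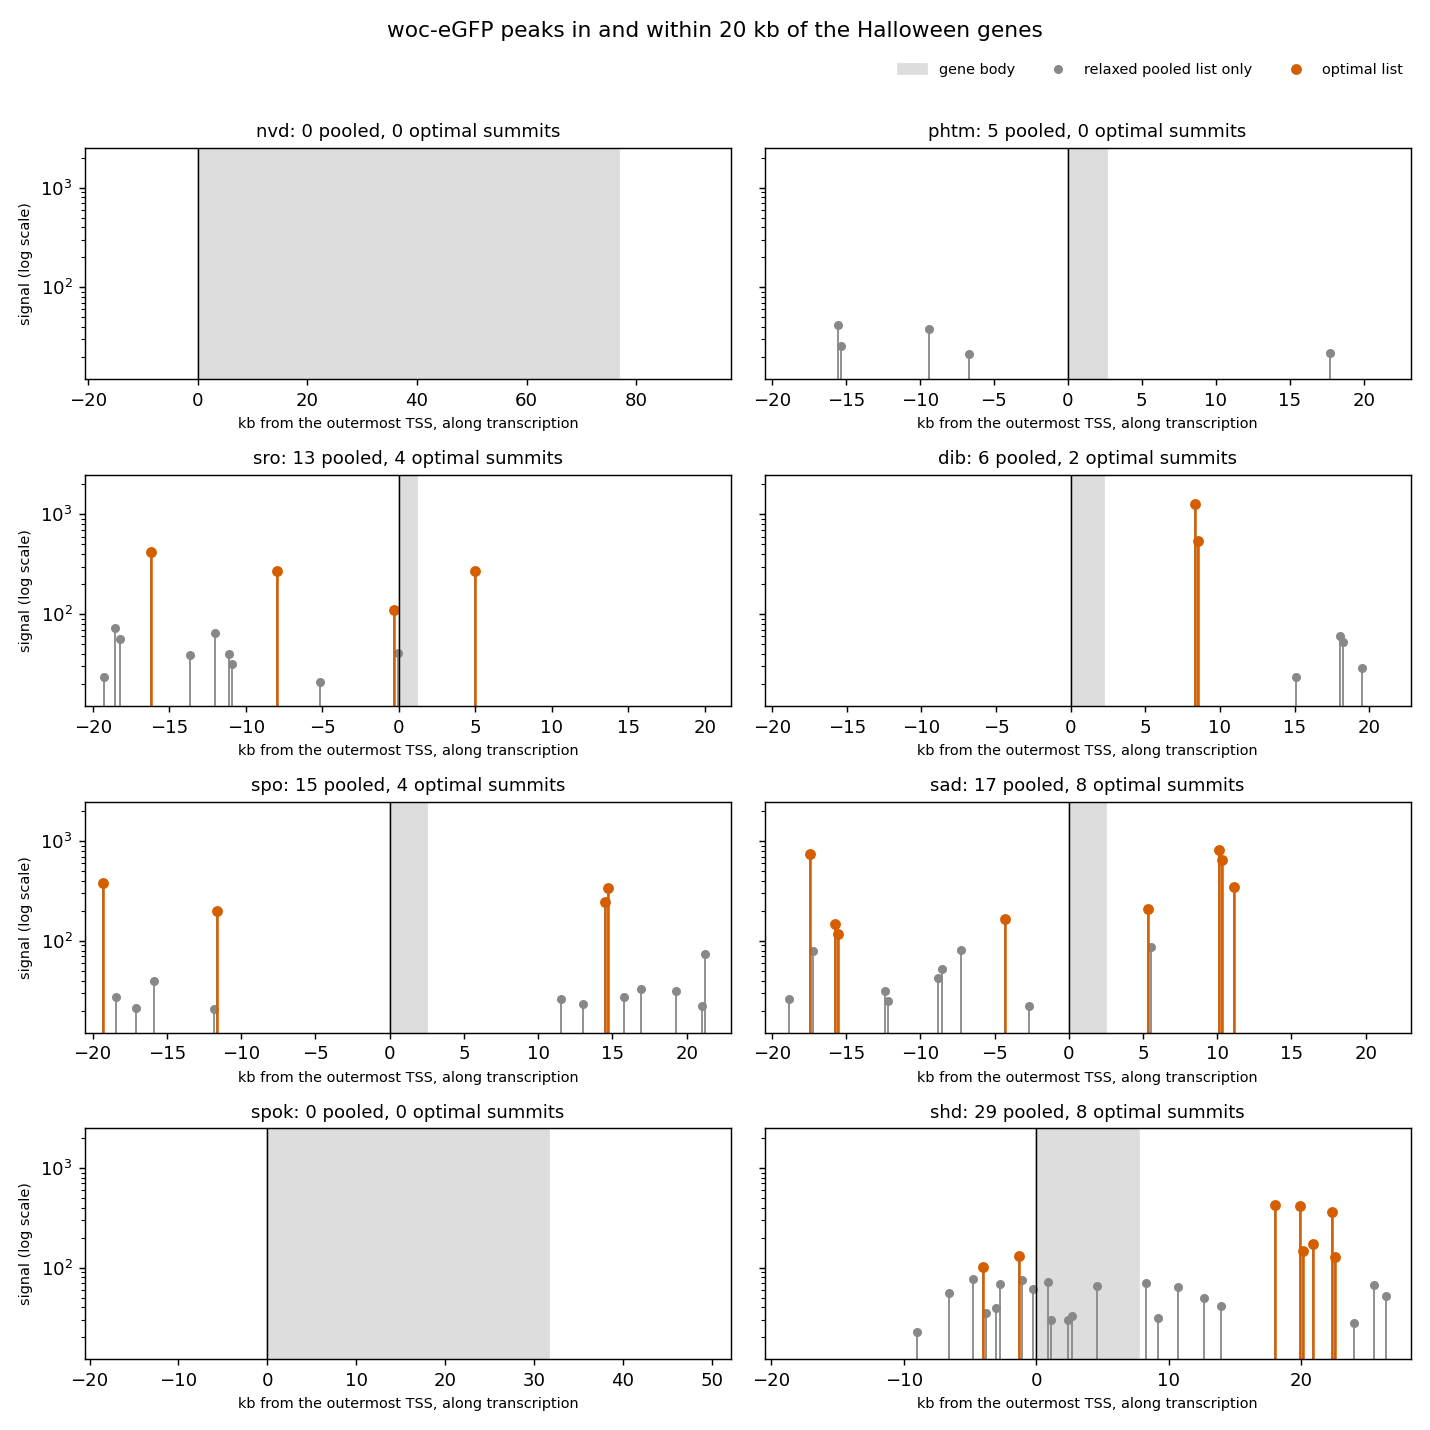
Each panel is a Halloween gene. The x axis is the distance in kb of each peak summit from the gene's outermost TSS, along the direction of transcription, over the gene body (grey band) and 20 kb on either side; the y axis is the signal of the pooled list on a log scale. Orange stems are optimal peaks and grey stems are peaks of the relaxed pooled list alone: no orange stem stands inside a gene body, nvd and spok have no stem at all, and the highest stem, 1281, stands beside dib.

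Each of these 26 summits was then placed by the gene whose promoter or intron held it, if any. Only the sro summit lay at a member's own promoter, 6 lay at the promoter of a neighbour, and 19 at no coding promoter. The share at any coding promoter was therefore 26.9% (7 of 26), where 44.2% of all 6614 optimal summits on the arms lay at one. This difference rested on the library read: with the 6636 highest peaks of replicate 1 the share was 44.8% (13 of 29) around the Halloween genes and 49.6% over all, and with those of replicate 3 it was 24% (6 of 25) and 42.3%. Of the 19 away from promoters, 13 lay in introns of neighbouring genes and 6 between genes. The share of all optimal summits in introns was not counted, so this split is a description only. The caller's −log10 q stood at its ceiling of 3.94 for 21 of the 26, and 66.0% of all optimal summits on the arms were at that ceiling. The median signal was 270.3 for the 26 summits and 183 for all optimal summits on the arms.

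nvd (3L:24324866-24401655, plus strand), the gene of the first step, had no peak in its body of 76790 bp or within 20 kb of it in the optimal, pooled, replicate 1 or replicate 3 list. The nearest optimal summit was 296421 bp from its start, at the promoter of CG40045, with a signal of 148, and 0.151% of all genes had their nearest optimal summit as far away or farther. The nearest relaxed pooled peak, of signal 44.9, was 93251 bp away. In the library lists the nearest peak was 90816 bp beyond the gene's end in replicate 1 (signal 10.5) and 93202 bp before its start in replicate 3 (signal 41.7).

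spok (3R:3322810-3354486, plus strand), the P450 gene of the larval gland, was likewise empty in all 4 lists. Its nearest optimal summit, of signal 106, was 232625 bp beyond its end at the promoter of Parp1, the poly(ADP-ribose) polymerase gene. On the other side of spok the arm held no optimal summit at all, and the first relaxed pooled peak there, at the promoter of Myo81F, was 2755911 bp away with a signal of 29.0. Both empty windows lie in stretches with few genes: no other coding gene started within 20 kb of nvd or of spok, where the median over all genes was 8.

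The windows of nvd and spok were also the richest in repeats among the 8 genes. Lower-case letters in the RefSeq sequence, which mark repeats, made up 40.5% of the window of nvd and 53.1% of that of spok. The other 6 genes ran from 10.5% (sad) to 18.1% (shd), and the median over all genes was 13.5%. A window as repeat-rich as that of nvd, or more, was found at 90 genes (0.645%), and 40 of these 90 (44.4%) had no relaxed pooled summit in the window. Both the 90 and the 40 include nvd and spok themselves. Reads from repeats cannot always be placed on 1 copy. How the authors treated such reads is not given in the sources used here, and the part of repeats in the empty windows was not tested.

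**Figure D2:**
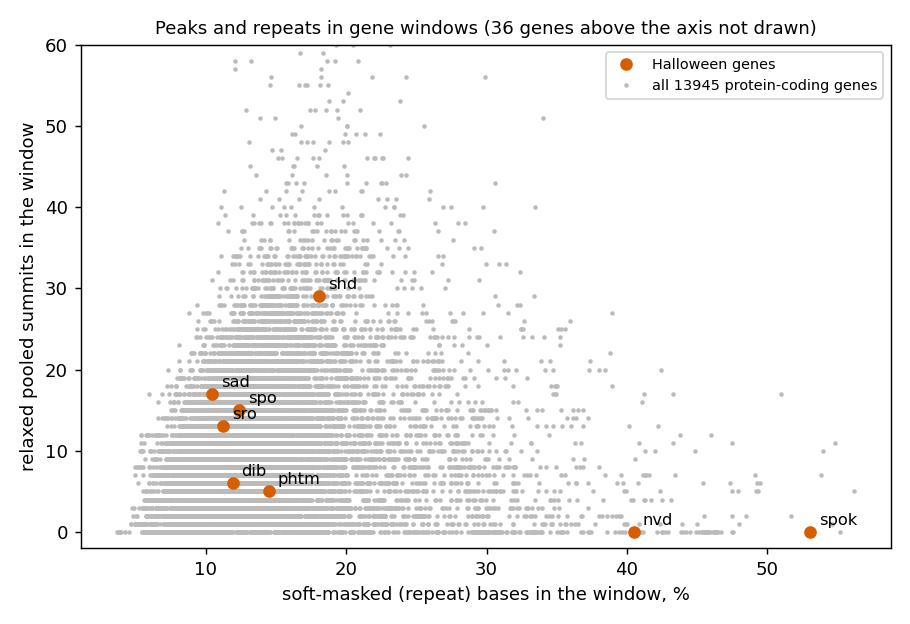
Each point is a protein-coding gene, with the percentage of repeat letters in the window (gene body and 20 kb on either side) on the x axis and the number of relaxed pooled summits in that window on the y axis; 36 genes above the top of the axis are not drawn. The 8 Halloween genes are orange: nvd (40.5%) and spok (53.1%) lie at 0 summits, while shd (18.1%) has 29.

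sro (3R:29794597-29795805, plus strand) was the member with a promoter peak. The optimal interval ran from 3R:29794047 to 29794556, between genes, with its summit at 29794302, 295 bp upstream of the TSS. Its signal was 109 in the pooled list, 42.6 in the replicate 1 list and 67.3 in the replicate 3 list. This was a weak peak: it ranked 6052 of 6636 in the optimal list, with a −log10 q of 2.59, and 6000 and 6750 of 29999 in replicates 1 and 3. Its summit was nearly in the same place in both libraries, 0 bp from the pooled summit in replicate 1 and 8 bp in replicate 3. A second, relaxed summit 83 bp upstream of the TSS had a pooled signal of 40.7. The 300 bases before the sro TSS, from just before the summit (bases 6 onwards) to the start site, are shown because they are the only stretch at a Halloween gene's own start in the optimal list (RefSeq sequence of dm6, chr3R:29794297-29794596, plus strand). In the printed sequences capitals mark only matches to the letter patterns searched, and lower case does not mark repeats. None of the 6 letter patterns searched (named further on) occurred in this stretch, so it holds no capitals.
sro upstream: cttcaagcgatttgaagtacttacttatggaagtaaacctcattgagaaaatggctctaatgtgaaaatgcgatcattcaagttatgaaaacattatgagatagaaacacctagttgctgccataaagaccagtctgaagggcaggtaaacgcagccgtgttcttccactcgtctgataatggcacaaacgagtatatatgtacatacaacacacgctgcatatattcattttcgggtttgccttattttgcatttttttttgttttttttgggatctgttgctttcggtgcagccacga

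The other 3 optimal summits around sro were stronger than the one at its promoter, and lay nearer to other genes. Those at 29778427 (signal 416) and 29786636 (268) lay in introns of kay, which encodes the Fos transcription factor, 16170 and 7961 bp upstream of sro. The summit at 29799582 (272) lay 76 bp from a TSS of Drice, an effector caspase gene, and 228 bp from one of Rnb. At the stronger kay summit the signal was 132 in replicate 1 and 286 in replicate 3, and at the Drice summit it was 121 and 148.

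spo (3L:5590083-5592571, minus strand), the P450 gene of the embryo and ovary, had no summit in any list within 10 kb of its start. The nearest was a replicate 3 peak 10858 bp away, and the nearest optimal summit was 11642 bp away. That summit, at 5604213, had a signal of 200.5 and lay 234 bp from a TSS of TM9SF3, with 72.5 in replicate 1 and 134 in replicate 3. On the other side of spo, a pair of summits at 5577864 (336) and 5578065 (247) lay 516 and 717 bp from a TSS of Msr-110, just past the limit for a promoter. The fourth, at 5611898, had a signal of 381 and lay 19327 bp from spo and 3598 bp from the TSS of Eaf6.

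phtm (X:18685766-18688433, plus strand), which encodes a hydroxylase of the gland, had no optimal summit in its window. The nearest lay 28088 bp away at the promoters of fu and CG6659, with a signal of 201, and 16.6% of all genes had theirs as far away or farther. The relaxed pooled list held 5 peaks around phtm, with signals from 21.4 to 41.4, of which the second highest (38.5) lay at the start of the noncoding gene lncRNA:CR45710. In replicate 3 alone a relaxed peak lay at the phtm promoter, 394 bp upstream, with a signal of 34.0 and rank 12475 of 29999. Neither the pooled nor the replicate 1 list held a peak within 500 bp of the start, and the nearest in replicate 1 was 7968 bp away. The 151 bases around that replicate 3 summit are shown because it is the only peak recorded at the phtm start (chrX:18685297-18685447, plus strand, dm6).
phtm summit of replicate 3: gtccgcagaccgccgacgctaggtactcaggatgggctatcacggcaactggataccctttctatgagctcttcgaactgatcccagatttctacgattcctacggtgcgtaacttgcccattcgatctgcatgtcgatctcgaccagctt

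dib (3L:4062292-4064551, plus strand), a mitochondrial hydroxylase gene, lay near the strongest peak of all 8 windows. The summit at 3L:4070620 had a signal of 1281 and ranked 42 of 6636, and its neighbour at 4070822, in the same interval, had 537. In replicate 1 the signal at the first was 308 (rank 78 of 29999), and in replicate 3 it was 978 (rank 28). Both libraries therefore placed it among their strongest peaks. Among the 10956 genes with an optimal summit in the window, 2.25% had one at least as strong. Since dib was singled out for the strongest peak, this share describes dib alone. The median of the highest signal in the window was 421.6 for the 5 Halloween genes with an optimal summit and 365.8 for the 10956 genes. The peak lay 8328 bp downstream of the dib TSS, in an intron of wit, which encodes a type II BMP receptor, and 1097 bp from the nearest wit TSS. It was thus at no coding promoter by the 500 bp limit. No list held a summit nearer than 8284 bp to the dib start, and none held a summit in the dib body. The 151 bases around the summit are shown as the strongest woc-eGFP site near a Halloween gene, with capitals marking the letters TATAAA on either strand (chr3L:4070545-4070695, plus strand, dm6).
dib summit: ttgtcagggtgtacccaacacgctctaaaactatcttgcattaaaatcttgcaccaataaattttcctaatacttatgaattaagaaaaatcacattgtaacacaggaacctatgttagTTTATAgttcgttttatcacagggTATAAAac

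sad (3R:11877235-11879754, plus strand), which encodes the hydroxylase that forms ecdysone, had 8 optimal summits within 20 kb, a number that 8.67% of all genes reached. None was nearer than 4319 bp to its start, the distance of the summit at 11872916, which had a signal of 165 (42.5 in replicate 1 and 117 in replicate 3) and lay between genes. The strongest lay at the promoter of mthl5, a G protein-coupled receptor gene, 10110 bp downstream: a summit at 11887345 of signal 810 and a second at 11887545 of 653, 177 and 377 bp from its TSS. In replicate 1 the first of these had 233 (rank 209) and in replicate 3 it had 574 (rank 160). A summit of 751 at 11859769 and a weaker pair of 147 and 118 lay in an intron of CG6959, upstream. The summit at 11882589 (210.2) lay between the start sites of CG6962 (55 bp) and CG31368 (201 bp), and the last, at 11888371 (350.4), in an intron of CG31368. The bases around the mthl5 summit are shown as the strongest promoter peak in these windows; they hold none of the 6 patterns (chr3R:11887270-11887420, plus strand, dm6).
sad summit: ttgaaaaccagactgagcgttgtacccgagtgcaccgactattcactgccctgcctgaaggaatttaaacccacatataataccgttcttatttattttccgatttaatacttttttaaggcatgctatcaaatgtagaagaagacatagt

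shd (3L:14614458-14622205, plus strand), whose enzyme makes the active hormone in peripheral tissues, had the most relaxed pooled summits in its window among the members. It had 29, where sad had 17, spo 15 and the median over all genes was 10. It was also the only member with summits inside the gene. Its body of 7748 bp is longer than those of sro, spo, phtm, dib and sad (1209 to 2668 bp). The bodies of nvd and spok are longer still, in empty windows. Whether gene length bears on these counts was not tested. The shd body held 5 relaxed pooled summits, with signals of 71.7, 29.8, 30.05, 33.0 and 65.5, all in introns. The median signal of the relaxed pooled list, which includes background, was 42.6. The replicate 1 list also held 5 summits in the shd body, the highest of 38.9, and the replicate 3 list 3 (14.4, 27.7 and 48.2). At the shd start a relaxed pooled summit lay 277 bp upstream with a signal of 60.8, and the library lists had 46.4 (rank 5383) in replicate 1 and 24.0 (rank 16936) in replicate 3. Replicate 1 had a second summit there, 7 bp from the start, with a signal of 23.4.

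Farther upstream of shd, between genes, lay the only optimal summits of the 5 windows, beside the promoter peak of sro, for which the member itself had the nearest TSS. The first, at 14613186, 1272 bp from the start, had a signal of 132, with 31.9 in replicate 1 and 101 in replicate 3. The second, at 14610480, 3978 bp away, had 102, close to the lowest optimal signal of 99.6, with 22.5 and 74.9 in replicates 1 and 3. The other 6 lay more than 10 kb past the end of shd, at or in dlp, which encodes a glypican that binds Wnt proteins. The strongest of these (422 at 14632506) lay 95 bp from the dlp TSS and 429 bp from that of RecQ5, a DNA helicase gene, and the other 5 lay in introns of dlp with signals from 128 to 417. The 151 bases around the summit nearest to shd are shown, with capitals again marking TATAAA on either strand (chr3L:14613111-14613261, plus strand, dm6).
shd summit: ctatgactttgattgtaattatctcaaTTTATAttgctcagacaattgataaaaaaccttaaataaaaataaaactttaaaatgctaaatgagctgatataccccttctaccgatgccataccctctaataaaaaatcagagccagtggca

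The Halloween genes lay at widely different distances from the nearest optimal summit. Of all genes, 81.0% were as far from theirs as sro, the nearest of the 8, or farther. In order, the distance from a TSS was 295 bp for sro, 1272 bp for shd, 4319 bp for sad, 8328 bp for dib, 11642 bp for spo, 28088 bp for phtm, 264301 bp for spok and 296421 bp for nvd. The median was 9985 bp for the 8 genes and 6909 bp for all genes. Near the 20 kb limit, the outermost summit inside was that of spo at 19327 bp (381), and the first outside was one 20423 bp from sro (212).

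**Figure D3:**
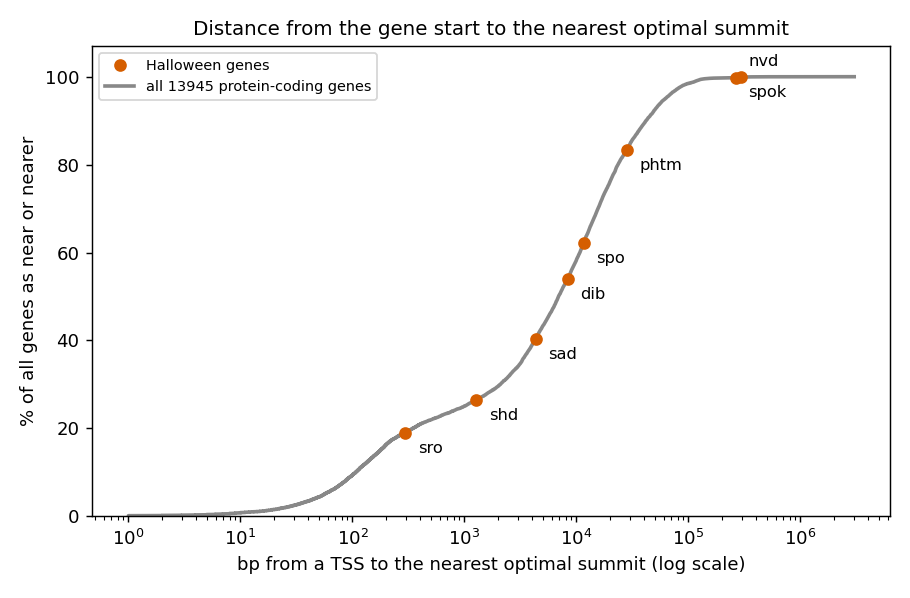
The x axis is the distance in bp, on a log scale, from a TSS to the nearest optimal summit, and the y axis is the percentage of all 13945 protein-coding genes that are as near or nearer (grey line). The 8 Halloween genes (orange) run from 295 bp for sro to 296421 bp for nvd, on either side of the all-gene median of 6909 bp.

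The libraries were compared at the 26 optimal summits by the nearest summit within 150 bp. Each of the 26 had one in both libraries, which is close to fixed by the choice of peaks from the pooled reads of the same libraries. Since the lists state no common scale, a ratio of their signals does not compare the amount of woc-eGFP between libraries, and serves only to set summits side by side. The number in the replicate 3 list was the larger at all 26, with a median ratio to replicate 1 of 2.38 and a range from 1.18 to 6.29. Over the 6122 optimal summits on the arms found in both libraries the median ratio was 2.07, and the replicate 3 number was the larger at 91.2%. The ratio was 1.58 at the sro promoter. It was 3.15 and 3.34 at the summits upstream of shd, and highest at separate summits in dlp introns (6.29 at 14634601 and 5.63 at 14637028). Each of these dlp summits lay beside a stronger one, at 14634396 and 14636812, where the ratio was 3.96 and 2.30. The summit at 14634601 was matched to a replicate 1 summit 82 bp away. Of the 26 summits, 20 stood among the 6636 highest peaks of replicate 1, 23 among those of replicate 3 and 19 in both. The same counts were not made over all optimal summits, so these are descriptions only. The shd summits 1272 and 3978 bp upstream stood among the highest peaks of replicate 3 alone (ranks 4438 and 6074, against 8566 and 12960 in replicate 1). So did the dlp summits at 14634601 and 14637028. The sro promoter peak stood among the highest peaks of replicate 1 alone.

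**Figure D4:**
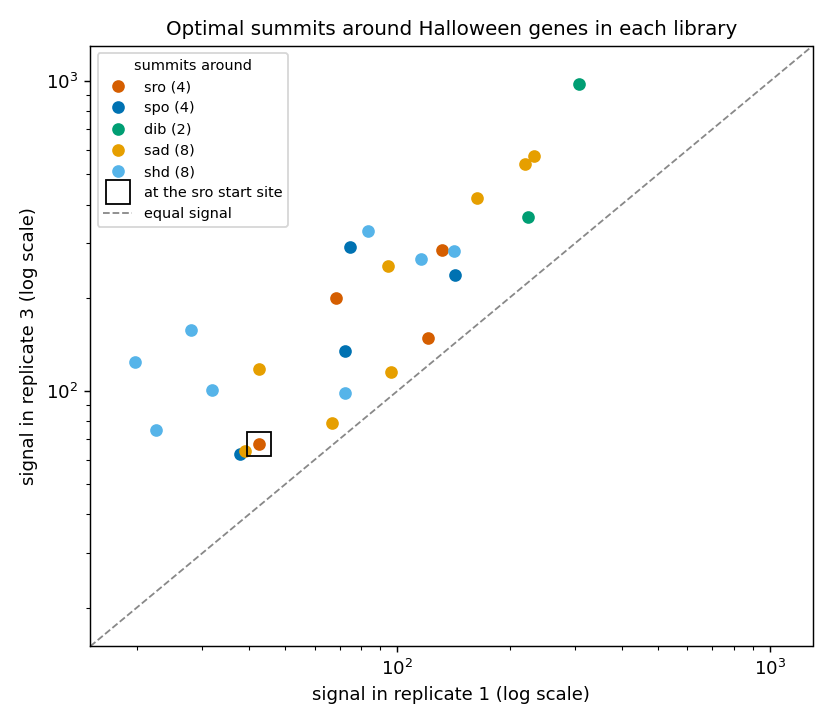
Each point is 1 of the 26 optimal summits around a Halloween gene, with its signal in the replicate 1 list on the x axis and in the replicate 3 list on the y axis (both log scales), coloured by the gene whose window holds it. All 26 points lie above the dashed line of equal signal, and the square marks the sro promoter peak at 42.6 and 67.3.

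Promoter calls at the start sites also differed by library. With the 6636 highest peaks of replicate 1 in place of the optimal list, sro and shd had a promoter peak, where 23.6% of all genes had one. Within 20 kb the same 5 genes as in the optimal list had a summit with either library's highest peaks (76.2% of all genes with replicate 1 and 80.3% with replicate 3), and no gene body had one (12.9% and 13.1% of all genes). At the promoters with those of replicate 3, none of the 8 genes had one, where 21.8% of all genes did. The single promoter call thus rests on which library is read, and sro lies next to the limit in both (ranks 6000 and 6750).

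Other genes of the pathway were counted from a list of 20 that supply sterol or electrons to these enzymes, move or break down the hormone, or regulate its synthesis. Of these, 6 had an optimal promoter summit, against the 21.9% of all genes given above, and 11 had a relaxed pooled one (55%), where 38.5% of all genes did. Npc1a, which moves sterol out of endosomes, had a signal of 442 (209 in replicate 1 and 239 in replicate 3), at a summit shared with the proteasome gene Prosalpha6. Npc2a, of the same sterol route, had 237, shared with Got2. Fdx2 (275, shared with CG15012) and Fdx1 (219) encode ferredoxins, small electron carriers of mitochondria. E23, an ABC transporter gene induced by ecdysone, had 351, and Oatp74D, the gene of the ecdysone importer, had 145. Each of these 6 signals was above the 109 at sro, but so were most optimal peaks, since sro ranked 6052 of 6636. The remaining 14, among them Start1, dare, ecd, mld, ouib, Ptth, tor and Cyp18a1, had no optimal promoter summit.

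Of the Halloween genes, 6 are cytochrome P450 genes, and none of these 6 had an optimal promoter summit, where 21.9% of all genes had one. With 6 genes this count is a description only. Among the 83 other P450 genes on the arms, a list that shares Cyp6t3 and Cyp18a1 with the pathway list, 5 had one (6.02%). The highest were Cyp310a1 (668), Cyp6u1 (521, shared with Ufsp1) and Cyp6v1 (298). The median distance from a TSS to the nearest optimal summit was 15328 bp for these 83 genes and 6909 bp for all genes.

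In sequence, the start sites of the 8 genes were searched for 6 letter patterns on both strands, from 250 bp before to 50 bp after the outermost TSS, and the optimal summits over 300 bp around each. TATCGATA, the DNA replication-related element, was in none of the 8 promoters (9.36% of all promoters) and at none of the 26 summits (4.55% of all optimal summits). TATAAA was in the promoters of nvd, spo, spok and dib (45.8% of all promoters), and at 16 of the 26 summits (61.5%, against 43.3% of all optimal summits). Windows of neighbouring summits overlap, so these 26 are not independent. GAGAG was in the promoters of phtm, dib, sad and shd (29.7% of all promoters) and at 9 of the 26 summits (34.6%, against 36.0% of all). CAGCTG was in the promoter of shd (17.7% of all), AGGTCA in that of spok (5.88% of all), and CACGTG in none of the 8 (4.20% of all). At the summits, CAGCTG was found at 2 of 26 (13.8% of all), CACGTG at 1 (3.07% of all) and AGGTCA at none (5.49% of all). In the sequences printed above, TATAAA was the only one of the 6 patterns present, with 2 matches beside dib and 1 beside shd.

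The chromatin came from whole larvae, so a peak in a few cells and a weak peak in many cells cannot be told apart in these lists, and an empty start site does not show that woc was absent there in the prothoracic gland.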

How the data were processed

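ChIP-seq peaks were taken from 2 woc-eGFP libraries (biological replicates 1 and 3) of whole larvae. Per the labels, chromatin was sonicated. The authors deposited peak lists on dm6 with a signal per peak and a −log10 q; per the text deposited with each library, relaxed lists were called on 1 library or on the pooled alignments with a control alignment, and the optimal list followed from them. The sources name IDR, run on both libraries and their pool, as the reproducibility threshold of the optimal list. No source used here names the caller, the aligner or the value of that threshold. The dm3 lists were not used, since no coordinates were converted between builds, and no control library was analysed here.

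Summits (1-based) were placed on the Ensembl release 115 annotation (BDGP 6.54) and the RefSeq sequence of the same assembly with Python 3.11.15 and pandas 2.3.3. The functions that count summits in windows were checked on simulated peaks. No statistical comparison between groups was made, and no p-value is given. Named genes were the 8 members, neighbours with a promoter at an optimal summit or at the strongest relaxed peaks, pathway genes with a promoter summit and the 3 strongest P450 promoters; other neighbours, such as wit, kay and Msr-110, and the pathway genes named without a summit were chosen after their values were seen. Other P450 genes were taken by symbol (Cyp and a digit); Cyp1 and Cyp40, which RefSeq describes as cyclophilins, were removed after the values were seen. The symbols torso and EcI were matched by hand to tor and Oatp74D. The members, lists and windows were chosen with earlier results of these data known. Alternatives changed the windows, the list, the overlap rule and the TSS set.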

Additional observations from a re-analysis of the deposited data

How the results depend on the processing

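The 5 genes with an optimal summit within 20 kb were also found with the 3318 highest optimal peaks, with interval overlap and in each library, with 4 within 10 kb and 6 within 50 kb. The count of 0 gene bodies held under its 4 alternatives. The promoter count of 1 (sro) became 0 within 250 bp of a TSS and 0 with the 3318 highest peaks, and ran from 0 to 2 with 1 library left out: 0 without replicate 1 and 2 without replicate 3. It stayed at 1 within 1000 bp, with interval overlap and with the outermost TSS. The relaxed promoter count of 2 became 1 within 250 bp and ran from 2 to 3 with 1 library left out. The 26 summits became 12 within 10 kb, 56 within 50 kb and 17 with the 3318 highest peaks, and ran from 25 to 29 with 1 library left out. The 6 summits at neighbours' promoters became 15 within 50 kb and ran from 6 to 11 with 1 library left out, the 11 without replicate 3. The 7 summits at any coding promoter ran from 6 to 13 with 1 library left out, the 13 without replicate 3, an alternative chosen after seeing the data. With the cyclophilins Cyp1 and Cyp40 left among the other P450 genes, a choice examined after seeing the data, 6 of 85 in place of 5 of 83 had a promoter summit. Wider windows and longer lists hold more peaks by construction; the cause of the differences between libraries was not tested. No paired analysis was possible because there is 1 group. The depth of the libraries is unknown, and each relaxed list holds 29999 peaks. Whether depth or list length bears on a missing weak peak, as at phtm in replicate 1, was not tested.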
